A study of Mus musculus with 531 samples.

Results

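The 46 genes described here drive or mark progress through the cell cycle, and they were read out in single cells of mouse embryos just before and during the start of gastrulation. They were taken as a list of gene symbols, and all 46 were found among the 22084 genes of the count table. For description they were split by role into 14 S phase genes, 19 mitosis genes, 5 genes for D cyclins and the kinases they activate, and 8 regulators. Each cell had been processed so that its DNA and its RNA were sequenced separately, and only the RNA, made into libraries with the full-length Smart-seq2 method, is described. The labels give 91 cells from 5 embryos at E4.5 (4.5 days of development), 80 cells from 1 embryo at E5.5 and 93 cells from 2 embryos at E6.5, all of the mouse strain C57Bl/6Babr. No treatment, transgene or allele is named for any embryo. Each stage also has its own prefix or prefixes in the cell labels, which cannot be told apart from age. The study's methods count fewer embryos at E4.5 than the labels do, and the labels were followed here, so the number of independent E4.5 embryos is not certain. At E4.5 the outer trophectoderm had been removed with antibody and complement, at E5.5 visceral endoderm and extraembryonic ectoderm had been parted from the epiblast, and at E6.5 extraembryonic tissue had been cut away by hand, after which single cells were picked by pipette.

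In a dividing cell, D cyclins bind the kinases CDK4 and CDK6 in G1 and phosphorylate the retinoblastoma protein RB1 and its relative RBL1, which releases E2F factors. E2F factors then drive the genes for cyclin E, the MCM helicase and the nucleotide supply for S phase. A later wave of genes, with cyclin B, CDK1, Aurora and Polo kinases and centromere proteins, is made in G2 and spent in mitosis. Cells of the mouse epiblast are known for very short cycles with little time in G1, and the endoderm that surrounds them gives rise to the yolk sac.

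After a filter of 50000 reads and 2000 detected genes, 217 cells remained, 75 from E4.5 with a median of 918469 reads, 59 from E5.5 with 1511811 and 83 from E6.5 with 1107378. Cells were grouped within each stage by marker genes alone, none of which is a cell cycle gene. At E4.5 this gave 19 epiblast-like and 56 endoderm-like cells in 5 embryos, and at E5.5 51 epiblast-like and 8 endoderm-like cells in embryo 7. In the E4.5 sums of each embryo, the 14 endoderm markers added up to 6943 to 9141 CPM (reads of a gene per 1000000 reads of the sum) in endoderm-like cells and to 17.5 to 206 CPM in epiblast-like cells, and the 11 epiblast markers to 820 to 1221 CPM against 3688 to 5398 CPM. At E5.5 the endoderm list summed to 13920 CPM in endoderm-like and 14 CPM in epiblast-like cells. The 8 endoderm-like cells of E5.5 were exactly the kept cells whose label number is a multiple of 12, so the cell group and this position in the numbering cannot be told apart. At E6.5 the markers did not part the lineages cleanly. Pou5f1, a pluripotency gene, and at least 1 of the endoderm genes Amn, Apoa1 and Ttr reached 10 CPM together in 80 of the 83 kept cells, against 6 of 59 at E5.5 and 63 of 75 at E4.5, where 54 of the 63 were endoderm-like. Cdx2 or Elf5, genes of the trophoblast, also reached 10 CPM beside Pou5f1 in 48 of the 83 cells, against 0 of 59 at E5.5 and 1 of 75 at E4.5. The part of this mixing in the results was not tested. Of the E6.5 clusters, 1 was mesoderm-like (23 cells, all of embryo 2) and 1 endoderm-like (17 cells of embryo 1 and 3 of embryo 2). By its number of raised markers cluster 3 (10 and 6 cells) was named epiblast, with 8 of 11 epiblast but also 5 of 8 trophectoderm markers raised. Its top 10 genes by fold held 3 trophectoderm and 0 epiblast markers. It is called by number here and served as the reference at E6.5, while cluster 2 (24 cells) stayed unnamed.

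Many S phase genes carry E2F sites near their start site and many mitosis genes carry the cell cycle homology region (CHR), so the promoters of the members were searched on both strands for the E2F letters TTTCGCGC, TTTGGCGC and TTTCCCGC and for the CHR letters TTTGAA. Windows from 250 bases before to 50 bases after the RefSeq start site (GRCm38.p6) were at hand for 36 of the 46 genes. An E2F motif was present in 6 of the 11 S phase genes matched (Cdc6, Cdt1, Mcm3, Mcm5, Mcm6 and Mcm7), in 3 of 6 regulators (Cdk2, Cdc25a and Rbl1) and in 1 of 16 mitosis genes (Cdk1). Of all 27025 genes with a window, 2.12% held one (1.845% of all 32851 promoter windows). The CHR letters were present in 10 of the 16 mitosis genes matched (Ccnb2, Cdk1, Cdc20, Plk1, Aurka, Bub1b, Cenpa, Cenpf, Top2a and Mki67) and in 1 of 11 S phase genes (Mcm2), against 20.2% of all genes (17.9% of all windows). None of the 3 D cyclin and kinase genes matched held either motif. The 250 bases before the start site of 2 genes of the MCM helicase and of 2 mitosis genes are shown 5′ to 3′ on the gene's own strand, with motif letters in capitals.
Mcm5, chr8:75109259-75109508, plus strand: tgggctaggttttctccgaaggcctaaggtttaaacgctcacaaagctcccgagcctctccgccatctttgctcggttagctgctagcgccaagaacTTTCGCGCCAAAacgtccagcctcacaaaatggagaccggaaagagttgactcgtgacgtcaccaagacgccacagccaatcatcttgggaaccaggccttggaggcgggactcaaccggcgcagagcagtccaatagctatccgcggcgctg
Mcm6, chr1:128359706-128359955, minus strand: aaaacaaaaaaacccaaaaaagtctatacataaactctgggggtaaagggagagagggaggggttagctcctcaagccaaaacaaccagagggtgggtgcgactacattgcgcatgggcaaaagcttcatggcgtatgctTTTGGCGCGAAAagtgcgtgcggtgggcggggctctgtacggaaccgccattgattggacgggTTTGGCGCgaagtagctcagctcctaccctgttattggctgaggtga
Cdc20, chr4:118437344-118437593, minus strand: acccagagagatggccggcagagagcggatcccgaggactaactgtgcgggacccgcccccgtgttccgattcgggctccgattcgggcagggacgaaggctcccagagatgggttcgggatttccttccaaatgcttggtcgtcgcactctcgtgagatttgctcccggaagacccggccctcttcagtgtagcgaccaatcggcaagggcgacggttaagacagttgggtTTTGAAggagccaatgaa
Cdk1, chr10:69352913-69353162, minus strand: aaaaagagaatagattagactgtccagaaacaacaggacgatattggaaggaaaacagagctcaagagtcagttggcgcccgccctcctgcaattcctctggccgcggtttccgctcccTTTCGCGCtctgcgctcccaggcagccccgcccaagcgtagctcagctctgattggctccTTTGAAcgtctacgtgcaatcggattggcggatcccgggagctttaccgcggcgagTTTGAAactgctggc
The capitals in Mcm5 are 2 overlapping E2F letters, 1 on each strand, that begin 153 and 149 bases before the start site. Mcm6 holds such an overlapping pair, 110 and 106 bases before its start, and a further match 47 bases before it. Cdc20, the activator of the anaphase-promoting complex, holds 1 CHR match 18 bases before its start. Cdk1 holds an E2F match 131 bases before its start and CHR matches 71 and 15 bases before it. These matches are letters in a window and say nothing of whether a factor binds there in these cells.

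Levels of different genes were compared per length, as CPM divided by the kilobases of annotated exon, over all kept cells. Cdk4, the kinase of D cyclins, was the highest member at 327, followed by Gmnn, the inhibitor of replication licensing, at 313. A single E6.5 cell held 41.1% of all Gmnn reads, and without it Gmnn stood at 187.6. Pcna, the sliding clamp of the replication fork, reached 162 (123.0 without its highest cell), Cdc20 161 (157.8) and Ccnb1, the mitotic cyclin B1, 105. At the other end, Rb1 was read at 0.18 (0.0968 without its highest cell) and in only 23 of 217 cells, Cdc25b at 0.870 and Cdk6 at 1.59. Ccnd1 stood at 22.2, Ccnd3 at 9.92 and Ccnd2 at 3.12 on this scale over all cells, but the order differed between groups. As means over embryos, Ccnd1 and Ccnd3 stood at 2.47 and 10.65 in endoderm-like and at 21.2 and 21.4 in epiblast-like cells of E4.5, and at 40.9 and 4.97 in epiblast-like cells of the E5.5 embryo. Exons of all annotated transcripts were joined for the length, which lowers the value of genes with long alternative ends.

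**Figure D1:**
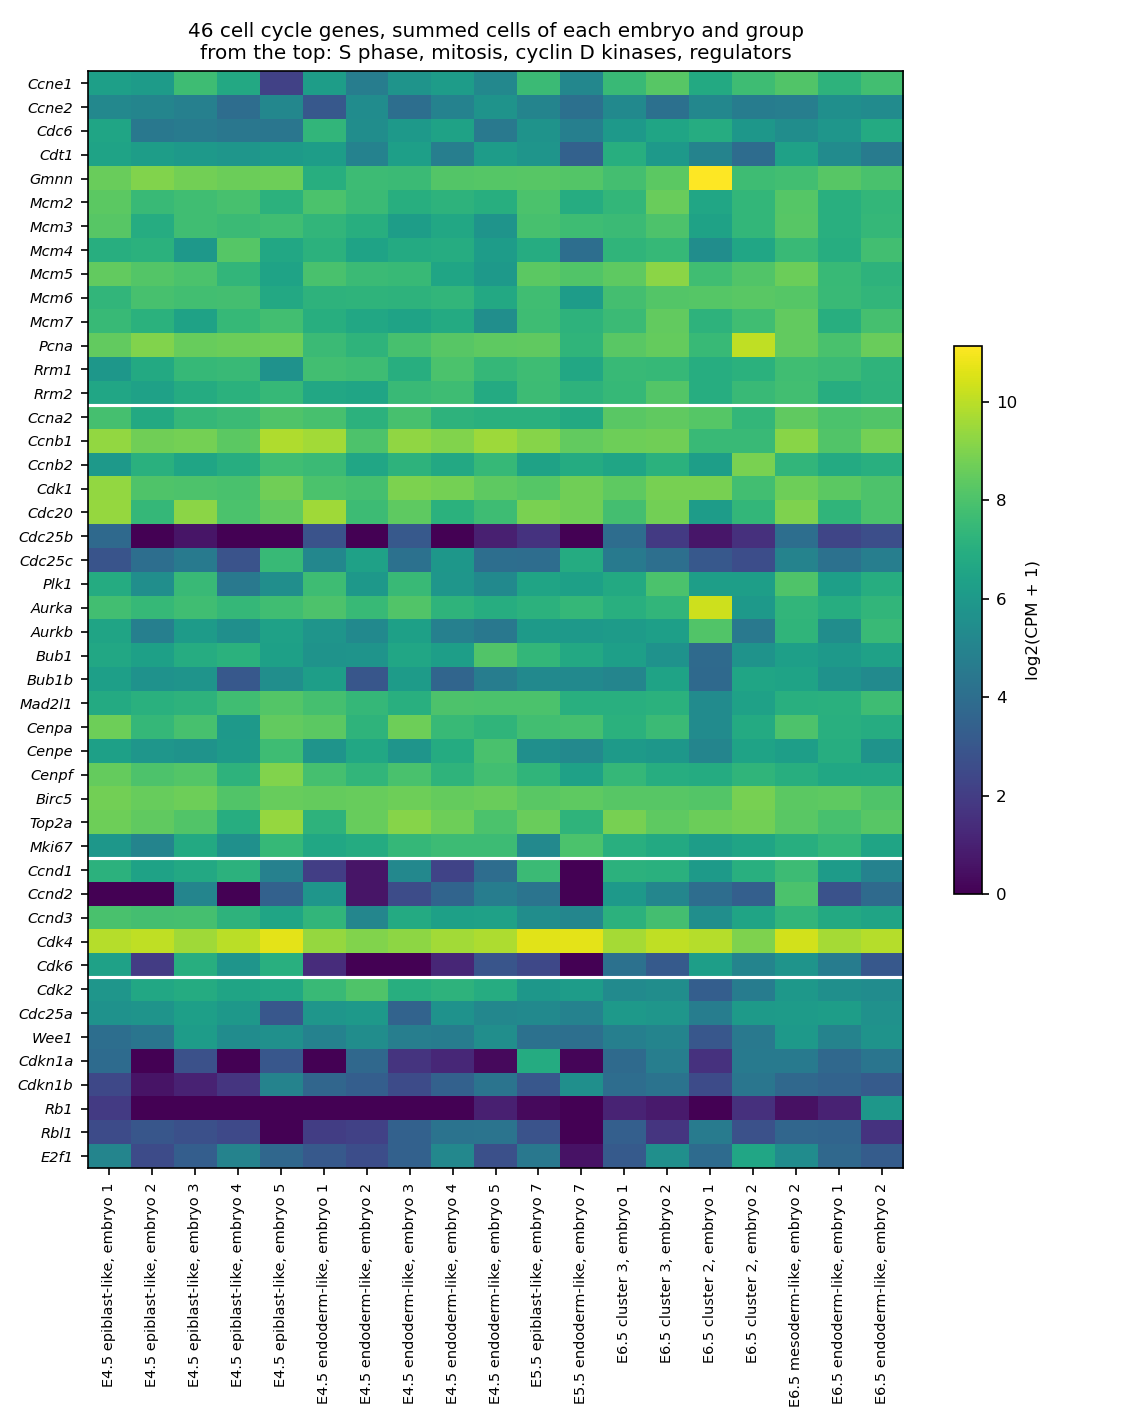
Level of the 46 genes, as log2(CPM + 1) of the reads summed over the cells of 1 embryo and cell group (columns), from 0 (dark) to the highest value (yellow). Cdk4 is bright in all columns, and dark squares are frequent in the rows of Rb1, Cdc25b, Cdkn1a, Ccnd1, Ccnd2 and Cdk6. The bright Gmnn square is cluster 2 of E6.5 embryo 1, at 2263 CPM, where 92.68% of the Gmnn reads came from 1 of 9 cells.

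Between the lineages of the E4.5 embryo, the D cyclins and their kinases differed, and all 5 of these genes passed the test. Ccnd1, Cdk6, Ccnd3 and Cdk4 were lower in endoderm-like than in epiblast-like cells, and Ccnd2 was higher. Counts were summed over the cells of each embryo and lineage and compared within embryos with edgeR's quasi-likelihood test, which used the 4 embryos with at least 3 cells of both lineages and adjusted p-values over all 14348 genes tested (Benjamini-Hochberg). Of all genes tested, 8.67% were called higher and 4.14% lower in endoderm-like cells at an adjusted p below 0.05, with a median log2 fold of 0.31. Of the 46 members, 2 were called higher and 7 lower, and their median log2 fold was -0.13. Without the embryo as a block in the fit, 0 members were higher and 4 were lower, so that Ccnd2, Ccnd3, Cdk4, Ccne1 and Mki67 rest on the comparison within embryos. The spread was estimated over all stages, and the calls for Ccnd2, Cdk4 and Ccne1 were also lost when either E6.5 embryo was left out (adjusted p 0.05873 to 0.2156). With limma, which weights cells equally, Ccnd2, Ccnd3, Cdk4, Ccne1 and Pcna were not called (adjusted p 0.0788 to 0.4212), and with Leiden clusters neither were these 5 nor Mki67 (adjusted p 0.08942 to 0.8247). Ccnd1, Cdk6 and Gmnn were called lower in all 18 alternative fits. Of these, the fit without E4.5 embryo 5 repeats the main fit, which did not use that embryo.

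Ccnd1 (ENSMUSG00000070348, chr7:144929931-144939925, minus strand) encodes cyclin D1. In endoderm-like cells of embryos 1 to 5 it stood at 3.22, 0.572, 35.99, 3.70 and 14.7 CPM, and in epiblast-like cells of the same embryos at 140.2, 84.7, 104.5, 141.4 and 28.6 CPM. Endoderm-like cells were lower in each embryo, although embryo 3's endoderm-like sum exceeded embryo 5's epiblast-like sum, and embryo 5 held only 2 epiblast-like cells. The fitted log2 fold was -4.69 ± 0.57 (SE, 4 embryos, edgeR adjusted p 1.921e-14). By cell, 13 of 56 endoderm-like and 17 of 19 epiblast-like cells held a read of Ccnd1.

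Cdk6 (ENSMUSG00000040274, chr5:3341485-3531008, plus strand), which encodes the other kinase of D cyclins, held few reads in endoderm-like cells. It stood at 1.69, 0, 0, 1.28 and 6.64 CPM there and at 82.3, 2.92, 125.9, 54.96 and 128.8 CPM in epiblast-like cells, where embryo 2 was far below the other 4. The groups did not overlap over the 4 embryos of the test, and the fitted log2 fold was -6.57 ± 1.13 (SE, edgeR adjusted p 2.648e-07). Reads of Cdk6 were present in 6 of 56 endoderm-like and 12 of 19 epiblast-like cells. Cdk4 (ENSMUSG00000006728, chr10:127063534-127067920, plus strand) was abundant in both lineages and differed little. Its endoderm-like sums were 674.7, 527.7, 603.9, 783.3 and 874.8 CPM and its epiblast-like sums 955.8, 1064, 756.0, 1028 and 1651 CPM, lower in endoderm in each embryo, with a log2 fold of -0.58 ± 0.20 (SE, edgeR adjusted p 0.02974). That call was lost when any 1 of E4.5 embryos 1 to 4 was left out, with an adjusted p of up to 0.1707 without embryo 2.

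Ccnd3 (ENSMUSG00000034165, chr17:47505051-47599691, plus strand, cyclin D3) was read in both lineages, at 158.4, 33.8, 111.9, 80.4 and 82.6 CPM in endoderm-like and 243.0, 222.4, 234.3, 146.2 and 92.5 CPM in epiblast-like cells. Endoderm-like cells were lower in each embryo, by a log2 fold of -1.30 ± 0.38 (SE, edgeR adjusted p 0.007418), and the call was lost without embryo 2 (adjusted p 0.1551). Ccnd2 (ENSMUSG00000000184, chr6:127125162-127152193, minus strand, cyclin D2) went the other way in most embryos. It stood at 56.4, 0.572, 5.05, 10.97 and 25.3 CPM in endoderm-like cells and at 0, 0, 32.9, 0 and 10.2 CPM in epiblast-like cells, so embryo 3 had the reverse order. The log2 fold of 4.5 ± 1.46 (SE, edgeR adjusted p 0.02134) leans on epiblast-like sums without a read, and the call was lost without embryo 1 (log2 fold 1.59, adjusted p 0.6859) or embryo 4 (1.9, adjusted p 0.6037), with no embryo block (1.14, adjusted p 0.5663) and with sums of at least 2 cells, which bring in embryo 5 (3.14, adjusted p 0.1311). Without embryo 3 no epiblast-like sum of the test held a read, so no fold can be given.

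**Figure D2:**
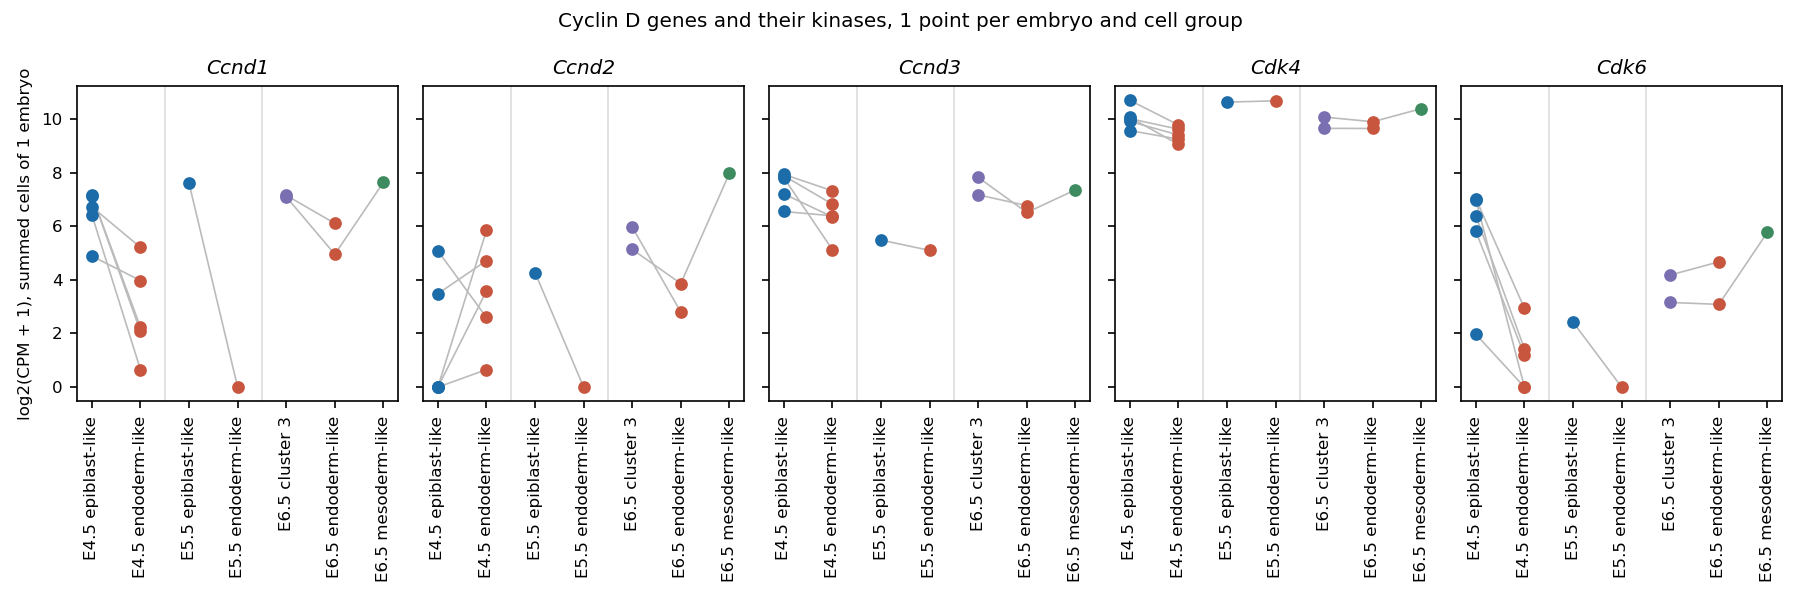
D cyclin genes and their kinases as log2(CPM + 1) of summed reads, 1 point per embryo and cell group, with grey lines joining groups of the same embryo. At E4.5 the lines of Ccnd1 and Cdk6 fall from epiblast-like to endoderm-like in each embryo, and at E5.5 the endoderm-like points of Ccnd1, Ccnd2 and Cdk6 lie at 0.

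Because the 3 D cyclins serve the same kinases, their shares in the summed D cyclin reads were compared next, which does not depend on the total in each sum. In epiblast-like cells of embryos 1 to 5, Ccnd1 gave 36.6, 27.6, 28.1, 49.2 and 21.8% of D cyclin reads, and in endoderm-like cells 1.48, 1.64, 23.5, 3.89 and 11.99%. Its share was lower in endoderm-like cells in 5 of 5 embryos, with a difference of -24.1 ± 17.02 percentage points (SD, n = 5). The exact two-sided permutation test over embryos gave p = 0.0625, the smallest that 5 pairs allow. Without the 6 E4.5 cells that the Ward and Leiden clusterings placed differently, the mean endoderm-like share of Ccnd1 was 4.13%, against 8.51% with them. The share of Ccnd2 was higher in endoderm-like cells by 9.28 ± 11.95 percentage points (4 of 5 embryos, exact permutation p = 0.1875) and that of Ccnd3 by 14.9 ± 14.3 percentage points (4 of 5, exact permutation p = 0.125). These 3 shares sum to 100% in each sum and are not independent, and each of the 3 p-values was 0.1875 after Benjamini-Hochberg adjustment over the 3. In both lineages of E4.5, Ccnd3 gave at least 50.8% of the reads in all sums. Per kilobase of exon this order was turned in epiblast-like cells of embryo 1, with 51.8% Ccnd1 and 48.2% Ccnd3, and of embryo 4, with 64.3% Ccnd1 and 35.7% Ccnd3, while Ccnd3 led in the other 8 sums.

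**Figure D3:**
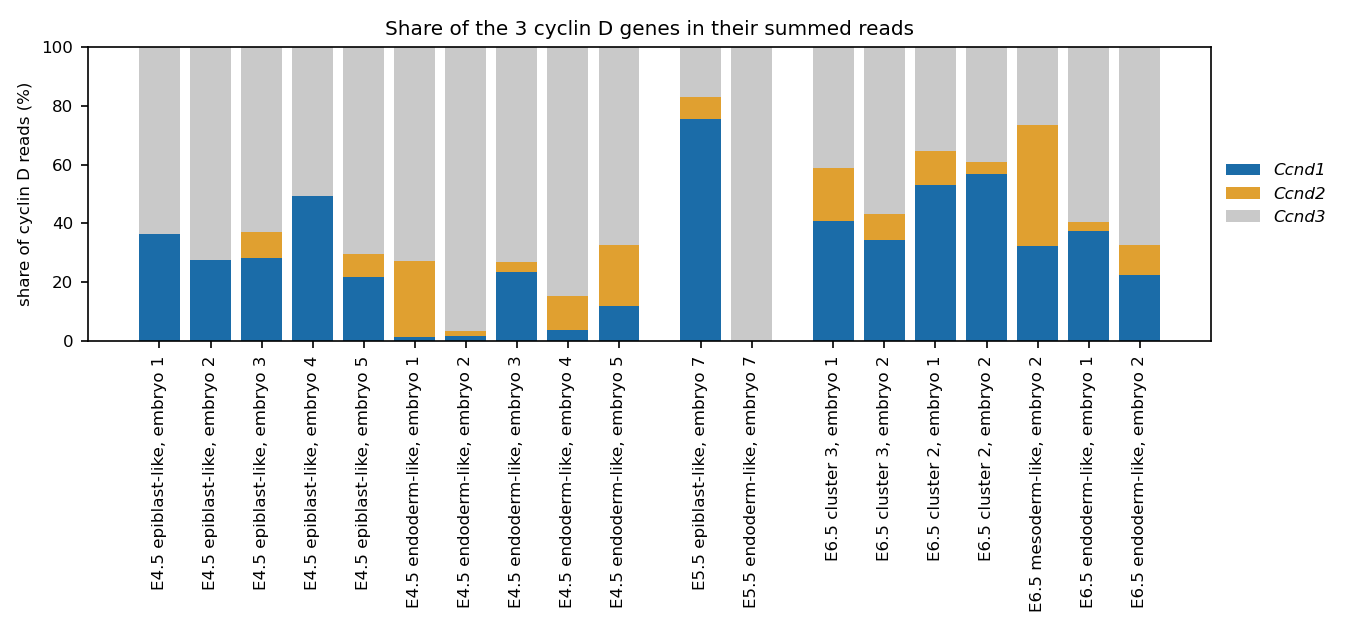
Share of Ccnd1, Ccnd2 and Ccnd3 in the summed reads of the 3 genes (percent of reads, stacked to 100), 1 bar per embryo and cell group. Ccnd1 takes 75.65% in epiblast-like cells of E5.5, Ccnd3 takes the whole bar in endoderm-like cells of E5.5, and Ccnd2 takes its widest share, 40.97%, in mesoderm-like cells of E6.5.

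Among the 14 S phase genes, 3 were called lower and 0 higher in endoderm-like cells of E4.5, beside 4.14% and 8.67% of all genes, and the median log2 fold was -0.46, against 0.31 over all genes tested. Gmnn encodes geminin, which keeps origins from firing again. It stood at 126.9, 198.6, 194.6, 289.7 and 297.7 CPM in endoderm-like and 383.7, 517.3, 443.0, 403.0 and 411.6 CPM in epiblast-like cells. No endoderm-like sum reached the lowest epiblast-like one, and the log2 fold was -1.18 ± 0.28 (SE, edgeR adjusted p 0.0005446). Pcna was separated in the same manner, at 189.9, 153.4, 235.7, 305.7 and 330.2 CPM against 355.6, 518.8, 373.9, 399.7 and 412.1 CPM, with a log2 fold of -0.94 ± 0.28 (SE, edgeR adjusted p 0.008536). Without embryo 2 the call for Pcna was lost (adjusted p 0.1289). Ccne1, cyclin E1, stood at 71.99, 25.2, 53.1, 70.5 and 35.4 CPM in endoderm-like and at 78.5, 68.6, 203.1, 105.3 and 3.39 CPM in epiblast-like cells. It was lower in endoderm-like cells of embryos 1 to 4 and higher in embryo 5, which the test did not use. Its log2 fold of -1.04 ± 0.38 (SE, edgeR adjusted p 0.04781) was close to the threshold, and the call was lost without embryo 2, 3 or 4 (adjusted p 0.1386, 0.3388 and 0.05175) and with sums of at least 2 cells (adjusted p 0.6397).

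The other 11 S phase genes did not pass. The MCM helicase genes Mcm2, Mcm3, Mcm4, Mcm5, Mcm6 and Mcm7 had log2 folds between -0.84 and -0.25, all below 0, with Mcm3 the nearest to a call (-0.84 ± 0.33 SE, edgeR adjusted p 0.06923). The licensing factor Cdt1 and the other cyclin E, Ccne2, had log2 folds of -0.60 ± 0.53 and -0.44 ± 0.80 (SE). The subunits of ribonucleotide reductase, Rrm1 and Rrm2, and the MCM loader Cdc6 had log2 folds above 0, of 0.64 ± 0.34, 0.35 ± 0.34 and 1.30 ± 0.52 (SE), the last with an edgeR adjusted p of 0.07844.

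Of the 19 mitosis genes, Mki67 was called higher in endoderm-like cells and 0 were called lower, a share no larger than the 8.67% and 4.14% of all genes, and the median log2 fold was 0.16, against 0.31 over all genes tested. Mki67, whose protein coats mitotic chromosomes and is used as a mark of dividing cells, stood at 97.9, 115.0, 168.1, 200.6 and 198.3 CPM in endoderm-like and 58.5, 32.1, 107.3, 48.02 and 175.3 CPM in epiblast-like cells. It was higher in endoderm-like cells of each embryo, though the ranges overlap, with a log2 fold of 1.30 ± 0.39 (SE, edgeR adjusted p 0.01155). The call was lost without embryo 2 (adjusted p 0.05782) or embryo 4 (adjusted p 0.1228), and with sums of at least 2 cells, which bring in embryo 5 (adjusted p 0.0569). The mitotic cyclins and their kinase, Ccna2, Ccnb1, Ccnb2 and Cdk1, had log2 folds between 0.05 and 0.37. The kinases Plk1, Aurka and Aurkb, the spindle checkpoint genes Bub1, Bub1b and Mad2l1, and the centromere and chromosome genes Cenpa, Cenpe, Cenpf, Birc5 and Top2a lay between -0.70 and 0.65. Cdc20 stood at -0.37, and the phosphatases that switch on CDK1, Cdc25b and Cdc25c, at 1.11 ± 2.63 and 1.97 ± 0.77 (SE), with an edgeR adjusted p of 0.07502 for Cdc25c.

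None of the 8 regulators passed the test between lineages at E4.5. Cdk2, the kinase of cyclins E and A, and Cdkn1b, the inhibitor p27, were higher in endoderm-like cells of all 4 embryos tested without overlap, at 126.6 to 265.6 CPM against 57.4 to 116.0 CPM for Cdk2 and 4.83 to 11.7 CPM against 0.487 to 4.33 CPM for Cdkn1b. In embryo 5, which the test did not use, Cdkn1b had the reverse order, 18.5 against 30.5 CPM. Over all genes tested, 9.68% were higher and 4.43% were lower without overlap, and among the members 2 were higher (these 2) and 4 lower (Gmnn, Pcna, Ccnd1 and Cdk6). Cdk2 had a log2 fold of 0.95 ± 0.42 (SE, edgeR adjusted p 0.1328). Cdkn1a (p21), Rbl1, E2f1, Wee1 and Cdc25a had log2 folds between -0.60 and 0.48. Rb1 held 0 reads in endoderm-like and 5 in epiblast-like sums of these embryos, too few to place.

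**Figure D4:**
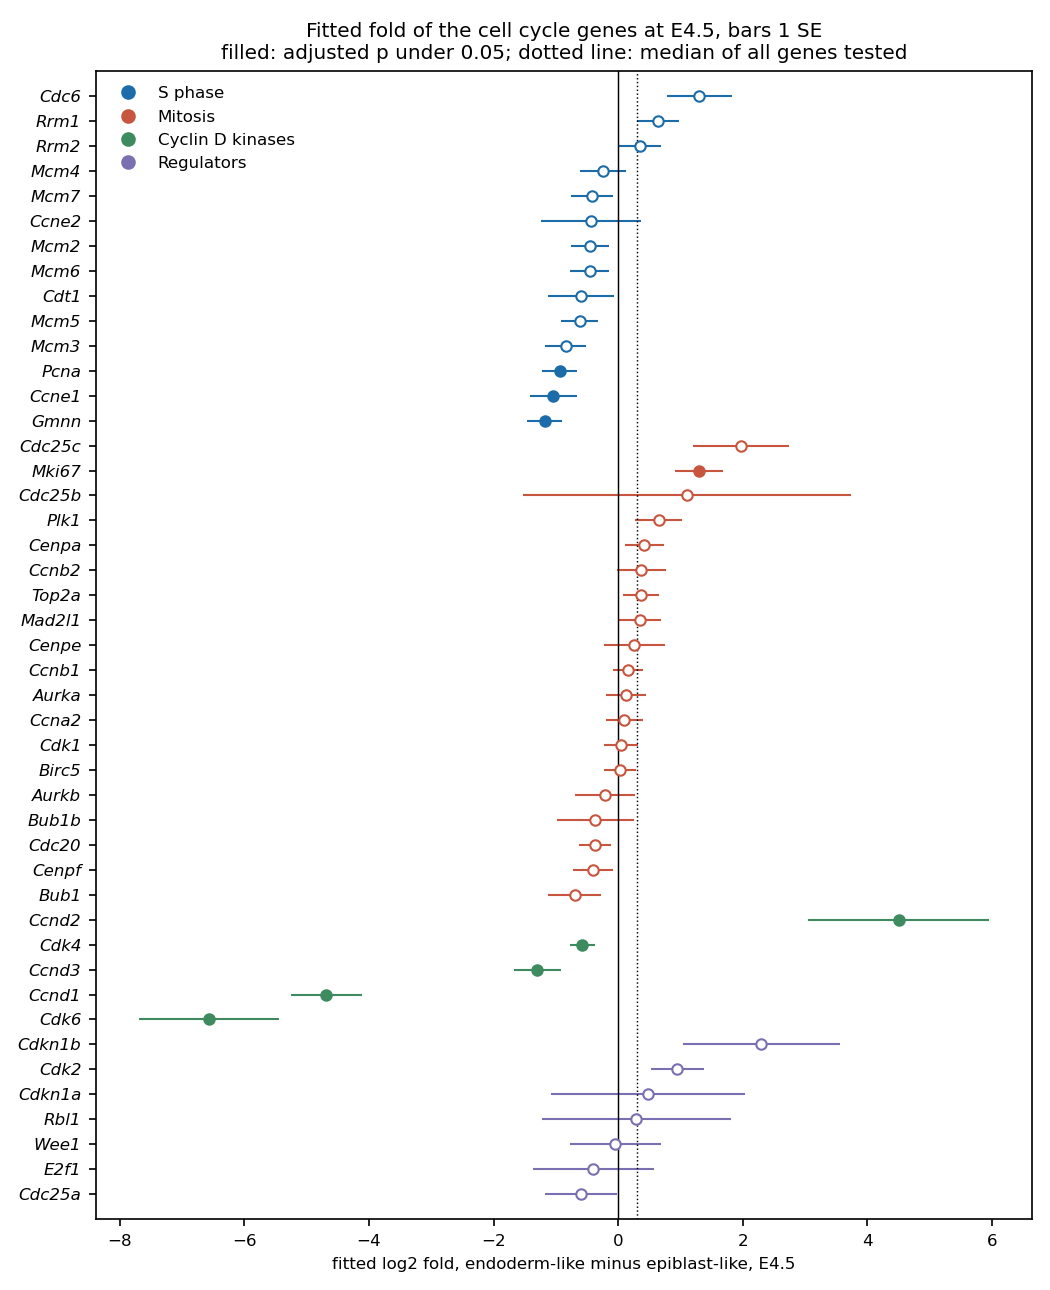
Fitted log2 fold of the cell cycle genes between endoderm-like and epiblast-like cells of E4.5, with bars of 1 SE, sorted within the role groups. Rb1, without a read in the endoderm-like sums, is not drawn. Filled points passed an adjusted p of 0.05, the dotted line is the median of all genes tested (0.31), and the D cyclin group holds the widest folds in both directions.

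At E5.5 the lineages came from 1 embryo, so the test borrows its spread from the other embryos and has no replicate check of its own. In endoderm-like cells, 2.69% of all genes tested were called higher and 6.54% lower (median log2 fold -0.70), and among the members 1 was called higher and 6 lower (median -0.29, or -0.26 with members at 0 set to their bounds). Ccnd1, Ccnd2 and Cdk6 held no read among 15648921 reads of endoderm-like cells, against 15251, 1449 and 346 of 79265663 reads in epiblast-like cells (192.4, 18.3 and 4.37 CPM). Taking a floor of 3 reads over the group, the read totals were at least 1004-fold, 95.4-fold and 22.8-fold lower (edgeR adjusted p 1.122e-13, 0.0006362 and 0.01726), bounds that cover the counting of reads and not the sampling of 8 cells. With 0 of 8 cells holding a read, the share of such cells could still be up to 37.5%. In epiblast-like cells 45, 11 and 7 of 51 held a read (88.2%, 21.6% and 13.7%), so for Ccnd2 and Cdk6 a difference in the share of cells was not detectable with 8 cells. Cdkn1a, the gene for the CDK inhibitor p21, held 2 reads against 9194, or 0.128 against 116.0 CPM, a ratio of 908 (251 to 7495, 95% exact binomial interval, counting error only; edgeR adjusted p 0.01053).

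Of the G1 genes, Ccnd3 was still read, at 33.2 CPM in endoderm-like and 43.7 CPM in epiblast-like cells, and so was Cdk4, at 1632 and 1575 CPM, and neither passed. Of the S phase genes, Ccne1 was lower (34.8 against 193.4 CPM, log2 fold -2.31 ± 0.75 SE, edgeR adjusted p 0.02939) and so was Mcm4, a helicase subunit (15.1 against 119.3 CPM, log2 fold -2.81 ± 0.76 SE, edgeR adjusted p 0.005473). Mki67 was again higher in endoderm-like cells, at 252.3 against 37.5 CPM (log2 fold 2.91 ± 0.81 SE, edgeR adjusted p 0.007034). The endoderm-like cells of this stage had fewer genes detected, with a median of 4223 against 5599, and the part of this in the calls was not tested. Since the spread comes from other embryos, the calls moved with those embryos: without E6.5 embryo 1 or 2, 3 or 2 members were lower, and without the embryo block 2 were. Ccne1, Cdk6 and Cdkn1a were lost without either E6.5 embryo, and Ccnd2 without embryo 2 (adjusted p 0.1027), while Ccnd1, Mcm4 and Mki67 were called in each of these 3 fits. With limma only Ccnd1 was called of the 7 (adjusted p of the others 0.07059 to 0.4178), and with the stricter cell filter 8 members were lower, but Ccne1 and Mki67 were not called, the log2 fold of Mki67 being 1.78 there (adjusted p 0.1282).

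At E6.5, no member passed between endoderm-like cells and cluster 3, where 0.307% of all genes did, or between mesoderm-like cells and cluster 3, where 0.174% did. At an unadjusted p below 0.05 there were 4 and 1 of the 46 members, against 3.05% and 1.66% of all genes, and DESeq2 and limma called none in either comparison. Ccnd1 stood at 67.8 and 29.9 CPM in endoderm-like cells of embryos 1 and 2 and at 141.0 and 135.8 CPM in cluster 3, and Ccnd2 at 5.95 and 13.5 CPM against 61.6 and 34.1 CPM. Both were lower in endoderm-like cells of both embryos, but with edgeR adjusted p of 0.9966 and 1.0. Mesoderm-like cells of embryo 2 showed the highest Ccnd2 of all sums, 250.1 CPM, with a read in 23 of 23 cells and a range of 98.6 to 550 CPM. Cdk6 stood at 53.6 CPM there, against 17.1 and 7.92 CPM in cluster 3 of the 2 embryos. In these cells the D cyclin reads were split into 32.4% Ccnd1, 40.97% Ccnd2 and 26.6% Ccnd3, against 34.45 to 40.85% Ccnd1 and 8.65 to 17.8% Ccnd2 in cluster 3. Per kilobase of exon Ccnd1 led there instead, with 48.2% against 30.5% Ccnd2 and 21.3% Ccnd3. All mesoderm-like cells came from 1 embryo, so this was not tested against a replicate.

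Whether the lineage difference itself changed between stages was tested with an interaction term. Between E5.5 and E4.5, 7.03% of all genes passed, and so did 4 members, Ccnd1, Ccnd2, Cdkn1a and Mcm4. The interaction was below 0 for these 4, and so was its median over all genes tested, -1.61 on the log2 scale, against -0.30 over the members. Endoderm-like cells were lower for Ccnd1 at both stages, with no read left at E5.5 (edgeR adjusted p of the difference 2.144e-05). For Ccnd2 the order was turned, from higher in most E4.5 embryos to no read at E5.5 (adjusted p 2.61e-05). With limma none of the 4 was called (adjusted p 0.1762 to 0.2922). Mcm4 differed by a log2 fold of -2.56 ± 0.83 (SE, edgeR adjusted p 0.0346), a call that was lost without E4.5 embryo 3 (adjusted p 0.09616) or either E6.5 embryo. The call for Cdkn1a (edgeR adjusted p 0.01997) was lost without either E6.5 embryo as well. Of 16 alternatives, the call for Mcm4 was lost in 10, with RLE normalization, the stricter cell filter and no embryo block among them. That for Cdkn1a was lost in 7, also with the stricter cell filter and no embryo block, and that for Ccnd2 in 2, limma and no embryo block. Between E6.5, where cluster 3 stood in for the epiblast, and E4.5, 2.76% of all genes passed, and so did 3 members, none of them with limma (adjusted p 0.3006 to 0.5089). The lineage difference was smaller at E6.5 for Ccnd1 (interaction 3.13 ± 0.84 SE on the log2 scale, edgeR adjusted p 0.01035). For Cdk6 the interaction of 6.84 ± 1.62 (SE, adjusted p 0.002196) was about as large as the E4.5 difference itself, and Cdk6 stood at 24.45 and 7.48 CPM in endoderm-like cells of E6.5 against 17.1 and 7.92 CPM in cluster 3. It was turned for Ccnd2 (-6.82 ± 1.83 SE, adjusted p 0.0105). Each of these 3 calls was lost when either E6.5 embryo was left out, that for Ccnd1 also without E4.5 embryo 4 (adjusted p 0.06045) and that for Ccnd2 without E4.5 embryo 1 or 4 (interaction -3.89 and -4.22, adjusted p 0.4645 and 0.3371). Without E4.5 embryo 3 the size of the Ccnd2 interaction again rests on epiblast-like sums at 0 reads.

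Between epiblast-like cells of E5.5 and E4.5, no member passed the test, where 0.689% of all 12913 genes tested did. Cluster 3 of E6.5 was compared with the same cells in the same fit, and no member passed against E4.5 or E5.5, where 3.88% and 0.441% of all genes did. At an unadjusted p below 0.05 there were 4, 5 and 3 of the 46 members in these 3 comparisons, against 11.1%, 19.03% and 5.26% of all genes. Ccnd3 went from 146.2 to 243.0 CPM in the 4 E4.5 sums to 43.7 CPM at E5.5 (log2 fold -2.17 ± 0.61 SE, edgeR adjusted p 0.1295). It passed with DESeq2 and limma, and its adjusted p ran from 0.0005675 to 0.4001 over the alternatives. Cdkn1a went from 0 to 14.1 CPM at E4.5 to 116.0 CPM at E5.5 (log2 fold 4.71 ± 1.44 SE, edgeR adjusted p 0.1831), and passed without the filter on low counts, with sums of at least 5 cells and with all kept cells (adjusted p 0.003006 to 0.462 over the alternatives). In the E5.5 epiblast-like cells Cdkn1a was uneven, with a read in 29 of 51 cells, a median of 10.2 CPM and a highest value of 768 CPM.

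In endoderm-like cells, stages were compared with 1 embryo at E5.5 and 2 at E6.5, and members passed at a share near or below that of all genes. From E4.5 to E5.5, 17.1% of 13631 genes passed, and so did 5 members. Cdk4 rose from 528 to 875 CPM in 5 embryos to 1632 CPM (log2 fold 1.53 ± 0.35 SE, edgeR adjusted p 0.004602), and Mcm4 fell from 70.8 to 143 CPM to 15.1 CPM (log2 fold -2.49 ± 0.67 SE, adjusted p 0.01332). Ccnd1, Ccnd2 and Rbl1, a pocket protein, went to 0 reads, at least 50.9-fold, 102-fold and 82.4-fold lower by the count of reads alone (edgeR adjusted p 0.01749, 0.01798 and 0.03041). At E4.5 only 13, 16 and 23 of 56 endoderm-like cells held a read of them, and 0 of 8 cells at E5.5 allows up to 37.5%, so for Ccnd1 and Ccnd2 (23.2% and 28.6%) a fall in the share of cells was not detectable. The call for Ccnd1 was lost without E6.5 embryo 1, which changes the shared spread (adjusted p 0.05165), and with limma Ccnd1, Ccnd2 and Rbl1 were not called (adjusted p 0.07391 to 0.2007). From E5.5 to E6.5, 9.77% of genes and 3 members passed. All 3 members were higher at E6.5, as was the median of all genes tested, with a log2 fold of 0.96 against 0.30 over the members. Mcm4 rose to 122.8 and 214.6 CPM (log2 fold 3.20 ± 0.74 SE, edgeR adjusted p 0.00886), and Ccnd1 and Ccnd2 rose from 0 reads at least 338-fold and 34.2-fold by the count of reads alone (adjusted p 0.01315 and 0.04405). The calls for Mcm4 and Ccnd2 were lost without E6.5 embryo 2 and those for Ccnd1 and Ccnd2 without E6.5 embryo 1, with adjusted p of 0.0509 to 0.1229. The call for Mcm4 was also lost with sums of at least 5 cells (adjusted p 0.06247), and that for Ccnd2 with these, limma, the stricter cell filter or without the 6 E4.5 cells that the clusterings placed differently (adjusted p 0.0613 to 0.2121).

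From E4.5 to E6.5, 5.42% of genes and 3 members passed. Ccne1 rose from 25.2 to 71.99 CPM to 144.5 and 218.8 CPM (log2 fold 1.86 ± 0.45 SE, edgeR adjusted p 0.01434), and Cdk2 fell from 117.9 to 265.6 CPM to 45.5 and 42.1 CPM (log2 fold -1.89 ± 0.47 SE, adjusted p 0.01584). Rb1, the retinoblastoma gene, passed as higher (log2 fold 6.78 ± 1.61 SE, edgeR adjusted p 0.01174), but stood at 1.07 and 58.4 CPM in the 2 embryos. Without embryo 2, which gave 3 cells, the log2 fold was 2.26. Only 6 of the 20 endoderm-like cells of E6.5 held a read, at 101 CPM at most. In all kept cells, 1 cell held 46.5% of the Rb1 reads, so the call rests on embryo 2 and leans on a single cell. The calls for Ccne1 and Cdk2 were lost without either E6.5 embryo, with sums of at least 5 cells and with Leiden clusters (adjusted p of the last 2 settings 0.3814 to 0.5093).

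S phase and mitosis activity were then set beside each other in single cells, as the mean log2(CPM + 1) over the 14 S phase and over the 19 mitosis genes. At E4.5 the S phase level was 6.43 in epiblast-like and 5.75 in endoderm-like cells (mean over 5 embryos), and the difference of -0.68 ± 0.34 (SD) was below 0 in 5 of 5 embryos, from -1.06 to -0.16. The mitosis level was 6.26 and 6.14, and its difference of -0.12 ± 0.61 (SD) was above 0 in 3 of 5 embryos. With each cell thinned to 50000 reads the differences were -0.90 ± 0.19 and -0.05 ± 0.75. In the E5.5 embryo the S phase level was 6.26 in epiblast-like and 3.94 in endoderm-like cells, and the mitosis level 5.36 and 4.78, with fewer genes detected in the latter. No p-value is given for these levels, because cells of 1 embryo are not replicates.

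Within embryos, the S phase level and the mitosis level of the cells mostly rose together, and only E4.5 embryo 3 had a correlation below 0. Across the cells of an embryo the correlation between the 2 levels ranged from -0.172 to 0.532 over the 5 embryos of E4.5 (8 to 24 cells each), was 0.36 over 59 cells of E5.5, and was 0.812 and 0.92 over the 36 and 47 cells of the E6.5 embryos. Within cell groups of E6.5 it was 0.504 over 17 endoderm-like cells of embryo 1, 0.233 over 23 mesoderm-like cells of embryo 2 and 0.923 over 15 cells of cluster 2 in embryo 2. Both levels also moved with the number of genes detected in a cell in most embryos. The correlation with gene number ran from -0.08 to 0.883 for the S phase level and from 0.368 to 0.944 for the mitosis level, lowest in E4.5 embryo 3. The part of this in the values was not tested. The cells of cluster 2 at E6.5 spread widely, with S phase levels from 0.84 to 7.94 in embryo 2, whereas the 23 mesoderm-like cells of that embryo lay between 6.96 and 7.84. In the 51 epiblast-like cells of E5.5 the median correlation of gene pairs was 0.123 within the S phase genes, 0.236 within the mitosis genes and 0.103 between them. Over the 4 other groups of at least 16 cells in 1 embryo these medians ran from 0.082 to 0.396, 0.087 to 0.22 and -0.018 to 0.194, and in endoderm-like cells of E4.5 embryo 5 that within S phase genes (0.396) was above that within mitosis genes (0.22). The closest pair in the E5.5 cells was Cdc20 and Cenpa at 0.712, and 0.683 after thinning. After thinning the 3 medians were 0.126, 0.212 and 0.081 in the E5.5 cells. In the 4 other groups they then ran from 0.056 to 0.273, 0.008 to 0.195 and -0.027 to 0.123. These correlations share depth and cell quality and are given as a description.

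**Figure D5:**
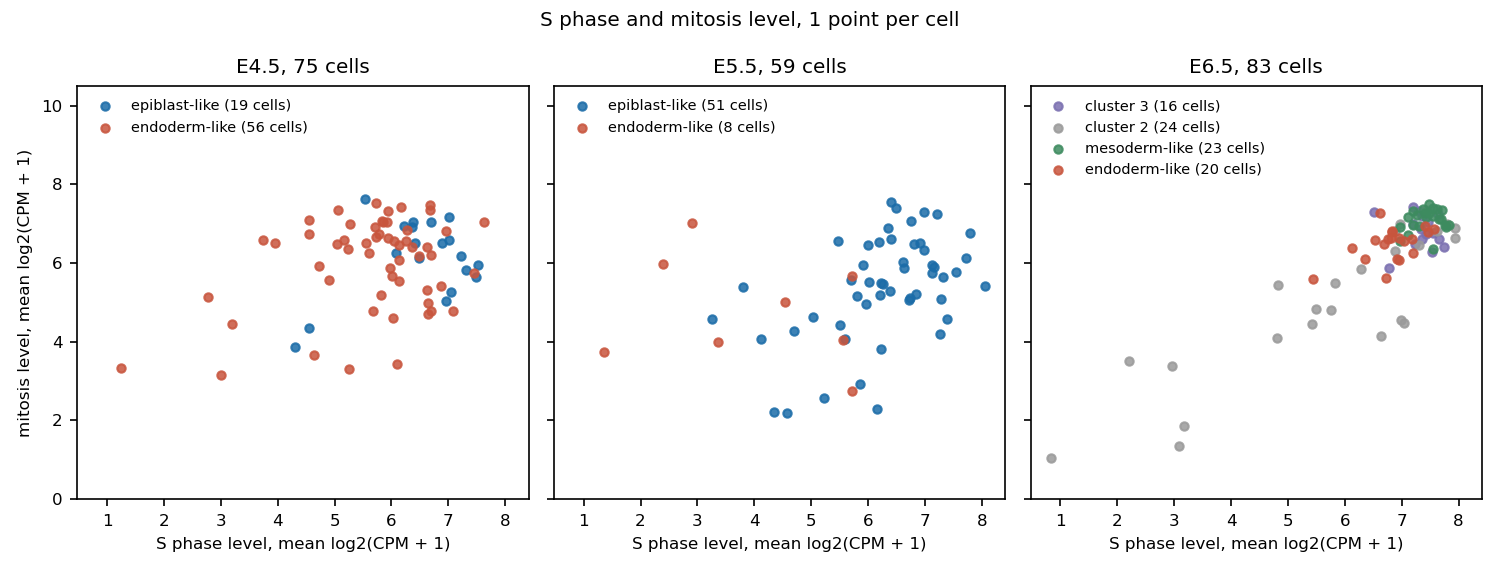
S phase level against mitosis level (each the mean log2(CPM + 1) over its genes), 1 point per kept cell, by stage and cell group. Most E6.5 cells sit in 1 corner at high levels of both, and cluster 2 stretches down along both axes. Endoderm-like cells lie further left, on average, than epiblast-like cells at E4.5 and E5.5.

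Another 86 cell cycle genes, listed by function, were counted in the same fits. Between lineages of E4.5, of 27 replication genes 0 were higher and 4 lower in endoderm-like cells, of 34 cell division genes 2 were higher and 1 lower, and of 11 genes for E2F factors and partners 2 were lower, beside 8.67% and 4.14% of all genes. Of 6 genes for inhibitors and pocket proteins and 8 for other cyclins and kinases, 4 and 6 were read well enough to be tested and 0 passed. The largest falls among them were in Pola1, the catalytic subunit of the priming polymerase (97.9 against 289.6 CPM, log2 fold -2.26 ± 0.43 SE, edgeR adjusted p 4.235e-06), and Pold1, that of polymerase delta (54.4 against 223.5 CPM, log2 fold -2.08 ± 0.40 SE, adjusted p 6.858e-06). E2f4, a repressive E2F factor, was lower by a log2 fold of -1.46 ± 0.44 (SE, edgeR adjusted p 0.009985). Tacc3 and Spc25, of the spindle and the kinetochore, were higher by 1.40 ± 0.48 and 1.26 ± 0.39 (SE, edgeR adjusted p 0.03183 and 0.01281). At E5.5 Cdkn1c, the gene for the inhibitor p57, and Kif2c, a microtubule-depolymerizing kinesin, held 0 reads in endoderm-like cells, at least 211-fold and 305-fold lower than in epiblast-like cells by the count of reads alone (edgeR adjusted p 6.567e-05 and 1.976e-05). Gtse1, expressed in G2 and S phase, held 2 reads there against 4303, a ratio of 425 (118 to 3508, 95% exact binomial interval; edgeR adjusted p 9.752e-07).

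In endoderm-like cells, Cdkn1c was higher in the E6.5 than in the E4.5 embryos (101 against 3.73 CPM, log2 fold 4.74 ± 0.97 SE, edgeR adjusted p 0.003033), and Kif23, needed for cytokinesis, was lower (42.7 against 130.4 CPM, log2 fold -1.57 ± 0.46 SE, adjusted p 0.04586). From E4.5 to E5.5 Gins1 and Fen1, of the replication fork, and Cks1b, a partner of CDKs, rose by 2.37 ± 0.76, 2.06 ± 0.51 and 1.28 ± 0.36 on the log2 scale (SE, edgeR adjusted p 0.03448, 0.007692 and 0.01607). By the count of reads alone, Kif2c and Pkmyt1, a kinase that inhibits CDK1, went to 0 reads, at least 91.75-fold and 60.9-fold lower, and Gtse1 to 2 reads, a ratio of 268 (74.1 to 2214, 95% exact binomial interval; edgeR adjusted p 0.002026, 0.01941 and 0.001036). From E5.5 to E6.5 Cdkn1c, Kif2c and Pkmyt1 rose from 0 reads, at least 529-fold, 116-fold and 26.1-fold by the same count (edgeR adjusted p 0.01095, 0.004992 and 0.02865). Fen1, Hmmr, a spindle protein, and Rfc4, of the clamp loader, fell by 2.26 ± 0.63, 1.97 ± 0.62 and 1.87 ± 0.59 on the log2 scale (SE, edgeR adjusted p 0.02624, 0.0453 and 0.0474). With the stricter cell filter the log2 folds of Hmmr and Rfc4 were -1.12 and -0.25 (adjusted p 0.1945 and 0.8471). Those of Gins1, Fen1 and Cks1b from E4.5 to E5.5 were 1.41, 1.33 and 0.97 with that filter, and these rises were not called with it or with limma. Pola1 was lower in cluster 3 of E6.5 than in epiblast-like cells of E4.5 (43.5 against 289.6 CPM, log2 fold -2.76 ± 0.46 SE, edgeR adjusted p 0.0009969), as was Mybl2, a factor for S and G2 genes (73.5 against 253.9 CPM, log2 fold -1.81 ± 0.45 SE, adjusted p 0.02754). Of the 24 calls of these other genes named here, 8 were kept in each alternative: Pold1 at E4.5, Kif2c in its 3 comparisons, Gtse1 in its 2, Pkmyt1 from E4.5 to E5.5, and Pola1 at E6.5. The other 16 were lost in at least 1 alternative. Between lineages of E4.5, Pola1 was lost with limma (adjusted p 0.06778) and with no embryo block (log2 fold -1.59, adjusted p 0.05018), Tacc3 was lost without embryo 1 or 3, Spc25 without embryo 3 or 4, E2f4 without embryo 1 or 2, and Tacc3 and Spc25 also without either E6.5 embryo. Without E6.5 embryo 2, Mybl2, Gins1, Cdkn1c and Kif23, and from E5.5 to E6.5 also Pkmyt1, Fen1, Hmmr and Rfc4, were not called.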

How the data were processed

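The authors deposited 1 table of raw read counts per gene (22084 Ensembl genes, 264 RNA cells), and each count is a read without a molecular identifier, so that intervals cover counting error only. The submitters' processing notes name Trim Galore 0.4.2 and 0.4.5, cutadapt 1.8.1, HISAT2 2.1.0, featureCounts, Bismark 0.19.0, R 3.4.3 and GRCm38 without saying which step each served. The annotation and the strand setting of the counting are not given in the sources used here. Symbols were matched for 21907 genes. Gene coordinates and exon lengths were taken from GENCODE (GRCm38) and promoters from RefSeq (GRCm38.p6).

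Cells with at least 50000 reads and 2000 genes were kept, with 306995 to 2632015 reads at E4.5, 600404 to 3772599 at E5.5 and 112008 to 8904445 at E6.5. Cells were clustered within each stage on fixed marker genes (Ward linkage), and doublets were not called. Counts were summed over at least 3 cells of each embryo and cell group, which gave 16 sums of 1747123 to 79265663 reads, since cells of 1 embryo are not replicates. The embryo of each cell was taken from its label, and separate embryos were the replicates. Stage cannot be told apart from the prefix of the cell labels, which also split E4.5 into embryos 1 to 2 and 3 to 5.

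Sums were tested with edgeR 4.0.16 (TMM, default expression filter, quasi-likelihood test, Benjamini-Hochberg, threshold 0.05). Lineages were compared with the embryo as a block over all stages in 1 fit, and stages were compared within endoderm-like sums and within epiblast-like sums, with cluster 3 in their place at E6.5. The block comes from the labels, and deviations of the lineages of 1 embryo from their group means correlated by 0.011 to 0.087. Single values used a pseudocount of 1 CPM. The code was tested on simulated counts first. Alternatives were DESeq2 1.42.0, limma 3.58.1 on mean CPM, another normalization (RLE), no expression filter, a stricter cell filter (200000 reads and 4000 genes), Leiden clusters (scanpy 1.11.5), other minimum cell numbers, other reference cells, and leaving out each embryo. Python 3.11.15, scipy 1.17.1 and R 4.3.3 were used.

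The 46 genes, the other cell cycle lists and the tests were chosen with earlier results of these data known. All 46 genes were accounted for, with values per embryo for the D cyclin genes and for those past the threshold between lineages at E4.5 or between stages in epiblast-like cells. Of the other cell cycle genes, those averaging 10 CPM or more and past the threshold were ranked, and up to 3 rises and 3 falls were named per comparison of 2 groups.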

Additional observations from a re-analysis of the deposited data

Results flagged for a closer look

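In a group of 5 embryos, a value was marked when its gap to the nearest other value took more than 0.71 of the group's range. Of 23 groups tested, 2 were marked, and chance marks about 1 in 20. Ccne1 in epiblast-like cells of E4.5 embryo 5 stood at 2.13 log2(CPM + 1), or 3.39 CPM, below the other 4 embryos at 6.12 to 7.67, with a gap of 0.72 of the range. This sum held 2 cells and was not part of the test between lineages. Cdk6 in epiblast-like cells of E4.5 embryo 2 stood at 1.97 log2(CPM + 1), or 2.92 CPM, below the others at 5.81 to 7.02, with a gap of 0.76 of the range.

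Differences between the stages in the lineage contrast (endoderm-like minus epiblast-like) were marked where the interaction term passed in edgeR. From E4.5 to E5.5 these were Ccnd1 (adjusted p 2.144e-05), Ccnd2 (adjusted p 2.61e-05), Cdkn1a (adjusted p 0.01997) and Mcm4 (-2.56 on the log2 scale, adjusted p 0.0346). From E4.5 to E6.5 they were Ccnd1 (3.13, adjusted p 0.01035), Ccnd2 (-6.82, adjusted p 0.0105) and Cdk6 (6.84, adjusted p 0.002196). The E5.5 side is 1 embryo, and the E6.5 side uses cluster 3, which carried markers of both epiblast and trophectoderm.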

How the results depend on the processing

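No call named in the text changed the sign of its fold in any alternative run. The counts of members called moved with the setting, and the cause was not tested. Between lineages at E4.5, 2 higher became 4 with DESeq2, 1 with limma and 0 with Leiden clusters, with sums of at least 2 cells or with no replicate block, and 7 lower became 9 with DESeq2, 3 with limma, 3 with Leiden clusters and 4 with no replicate block. At E5.5, 1 higher became 0 with limma or the stricter cell filter, and 6 lower became 8 with the stricter filter, 1 with limma and 2 with no replicate block. For the change in the lineage difference from E4.5 to E5.5, 4 lower became 0 with limma, 2 with sums of at least 2 cells, 2 without the 6 cells of E4.5 that the clusterings place differently and 1 with no replicate block. For that from E4.5 to E6.5, 2 higher became 0 with limma, 1 with sums of at least 2 cells and 0 with no replicate block, and 1 lower became 0 with DESeq2, limma, sums of at least 2 cells, clusters 2 and 3 of E6.5 together or no replicate block.

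In epiblast-like cells (cluster 3 at E6.5), 0 higher from E4.5 to E5.5 became 1 with no filter on low counts, 2 with sums of at least 5 cells and 2 with all kept cells, and 0 lower became 1 with DESeq2 or limma. From E4.5 to E6.5, 0 higher became 3 with sums of at least 5 cells, 2 with a replicate block on the embryo number and 3 with all kept cells, and 0 lower became 1 with all kept cells. Embryos that share a number across these stages share only the number (r -0.019 and -0.017). From E5.5 to E6.5, 0 higher became 1 with DESeq2. In endoderm-like cells, 1 higher from E4.5 to E5.5 became 2 with DESeq2 or the stricter cell filter, and 4 lower became 1 with limma and 8 with the stricter filter. From E4.5 to E6.5, 2 higher became 1 with DESeq2 or limma and 0 with sums of at least 5 cells or Leiden clusters, and 1 lower became 0 with either of the last 2. From E5.5 to E6.5, 3 higher became 8 with DESeq2, 5 with no filter, 6 with the stricter cell filter and 1 with sums of at least 5 cells, and 0 lower became 2, 1 and 1 with the first 3 of these.

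With each embryo left out in turn, members called between lineages were 0 to 3 higher and 4 to 7 lower at E4.5, and 1 to 1 higher and 2 to 6 lower at E5.5. For the change in the lineage difference, 2 to 5 were lower at E5.5, and 0 to 2 higher and 0 to 1 lower at E6.5. In epiblast-like cells 0 to 1 were higher from E4.5 to E5.5, and 0 to 1 higher and 0 to 1 lower from E4.5 to E6.5. In endoderm-like cells 1 to 2 were higher and 3 to 4 lower from E4.5 to E5.5, 0 to 2 higher and 0 to 1 lower from E4.5 to E6.5, and 1 to 4 higher and 0 to 1 lower from E5.5 to E6.5. The shares of D cyclin reads kept their direction in all 10 alternatives, at -32.88 to -18.85 percentage points for Ccnd1, 2.83 to 12.98 for Ccnd2 and 10.14 to 24.35 for Ccnd3. The S phase level difference of E4.5 stayed between -0.90 and -0.48, while the mitosis level difference ran from -0.28 to 0.10. Sums of at least 5 cells left no residual degrees of freedom for the lineages within embryos and were not run there, and Leiden clustering named no endoderm-like cluster at E5.5 and no epiblast-like cluster at E6.5. Sums of at least 2 cells, leaving out the 6 cells, clusters 2 and 3 together, shares per kilobase and levels without the highest cell were chosen after seeing the data. Over all genes, the E4.5 comparison called 1244 higher and 594 lower, against 1769 and 996 with DESeq2 and 607 and 531 with Leiden clusters.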

Other observations

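In cluster 2 of E6.5, which no marker list named, high levels of several members came from single cells. In embryo 1 (9 cells), 1 cell gave 92.68% of the Gmnn reads and 80.03% of the Aurka reads, with 21.31% of all reads of the cluster. Gmnn stood at 9843 CPM and Aurka at 4762 CPM in that cell, against medians of 286.8 and 98.28 CPM over the 9 cells. Another cell of this embryo gave 95.31% of the reads of Aurkb, the kinase of the chromosomal passenger complex, at 10970 CPM and with 2.389% of all reads. In embryo 2 (15 cells), 1 cell gave 79.08% of the Pcna reads and 81.74% of the Ccnb2 reads, at 5746 and 2600 CPM against medians of 286.4 and 97.88 CPM. These values are given as found, and cluster 2 entered no comparison as a group of its own.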
